A study of Mus musculus with 6 samples.

Results

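The VH1 family is the group of immunoglobulin heavy chain variable genes whose symbols start with Ighv1-, and every such symbol in the deposited table was taken as a member. The table held 50 of them among 7834 gene names and 100 Ighv genes, and the members filled 65 of its 13747 transcript rows. B-1 cells carrying CD5 on the surface are B-1a (CD5+), and those without it are B-1b (CD5-). Both subsets were FAC sorted from the peritoneal cavity (PerC) of untreated wild-type C57BL/6 mice, with no transgene or deletion in either group, and their poly-A RNA was sequenced in bulk. The study states 3 replicates per group, but its sources do not say whether these came from separate animals, so the spread given here may be technical, and no source used here gives the age of the mice. The comparison asks which heavy chain V genes the messenger RNA of each subset carries, always as B-1b over B-1a.

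A heavy chain V gene encodes the leader peptide and most of the antigen-binding variable domain, including the first and second antigen-contact loops (CDR1 and CDR2). Each B cell joins a single V gene to a D and a J segment on its productive allele and transcribes it with the constant gene Ighm, so in a cell population the level of a V gene follows both the number of cells that carry it and the transcript content of each cell, which bulk values cannot tell apart. VH1, also called J558, is the largest V family of C57BL/6 mice, while the natural antibodies for which B-1 cells are best known also draw on small families such as VH11 and VH12.

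The 50 members lie on the minus strand of chromosome 12 between 114469075 and 116000461 (GRCm38), and 92 genes of the family are annotated in GENCODE M21. That annotation gives 48 of the members as V genes and 2, Ighv1-2 and Ighv1-70, as pseudogenes. Their V regions, 294 bases long in 49 of 50, resemble each other closely, with a median identity of 95.9% to the nearest family member (range 81.0 to 100%), and 32 genes are at least 95% identical to another. A run of 100 bases is shared letter for letter with another annotated Ighv gene in 21 members and with none in 29. The stretches printed here are bases 73 to 195 of the V region, 123 bases that span both contact loops, from the GENCODE M21 transcripts of GRCm38. They show the 5 members with the highest log2 fold changes, on which the results turn (Ighv1-71, Ighv1-22, Ighv1-64, Ighv1-9 and Ighv1-54) beside close relatives, and capitals mark the bases that differ within each pair. Ighv1-9 and Ighv1-54 are capitalised where they differ from Ighv1-63, their closest relative in the table, which is not printed.
Ighv1-71: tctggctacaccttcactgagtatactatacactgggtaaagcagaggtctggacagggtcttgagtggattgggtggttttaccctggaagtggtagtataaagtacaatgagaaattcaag
Ighv1-62-2: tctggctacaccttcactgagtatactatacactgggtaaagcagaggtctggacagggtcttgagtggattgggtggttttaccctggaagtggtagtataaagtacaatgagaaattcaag
Ighv1-22: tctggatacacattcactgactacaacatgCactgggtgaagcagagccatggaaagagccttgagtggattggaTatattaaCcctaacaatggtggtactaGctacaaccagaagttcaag
Ighv1-18: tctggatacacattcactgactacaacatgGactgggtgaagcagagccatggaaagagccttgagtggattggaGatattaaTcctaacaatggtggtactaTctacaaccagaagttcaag
Ighv1-64: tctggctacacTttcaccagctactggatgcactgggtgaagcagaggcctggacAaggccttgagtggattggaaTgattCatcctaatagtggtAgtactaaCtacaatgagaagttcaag
Ighv1-62-3: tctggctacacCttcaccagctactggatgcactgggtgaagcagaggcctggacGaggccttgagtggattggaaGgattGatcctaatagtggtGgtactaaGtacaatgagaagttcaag
Ighv1-9: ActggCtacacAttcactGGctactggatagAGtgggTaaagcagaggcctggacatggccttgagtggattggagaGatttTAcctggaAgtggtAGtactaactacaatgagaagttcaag
Ighv1-54: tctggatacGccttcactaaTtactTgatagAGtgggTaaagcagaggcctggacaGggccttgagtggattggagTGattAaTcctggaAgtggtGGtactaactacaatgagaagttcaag
Over this stretch Ighv1-71 and Ighv1-62-2 differ at 0 positions, Ighv1-22 and Ighv1-18 at 4, Ighv1-64 and Ighv1-62-3 at 6, and Ighv1-9 and Ighv1-54 each at 14 from Ighv1-63. Ighv1-9, Ighv1-22, Ighv1-54 and Ighv1-64 share no run of 100 bases with another Ighv gene, whereas the whole V region of Ighv1-71 is identical to that of Ighv1-62-2.

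The columns numbered 3 were not independent of the others. B-1b replicate 3 equalled replicate 1 in 13722 of 13747 rows, and B-1a replicate 3 equalled the mean of replicates 1 and 2 in 13710, within a relative tolerance of 1e-06. The comparison therefore used 2 libraries per group, replicates 1 and 2. A replicate 3 departed from this relation in 46 gene names of the whole table, and 5 of these were the VH1 members Ighv1-9, Ighv1-22, Ighv1-54, Ighv1-64 and Ighv1-71, against 0 of the 50 other Ighv genes. The summed FPKM of the whole table lay between 324330 and 366992 in the 4 libraries. FPKM is a level scaled to transcript length and library size, and the depth behind it is unknown. The sort marker Cd5 was at 0.446 and 0.757 FPKM in B-1a and at 0.895 and 0.737 in B-1b and did not separate the groups, so the libraries are named by their labels.

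VH1 transcripts made up 46.7% and 42.3% of the summed FPKM of all Ighv genes in the B-1a libraries and 42.4% and 45.4% in the B-1b libraries (44.5 ± 3.14% against 43.9 ± 2.10%, SD, n = 2). Its summed level was 2870.2 and 2504 FPKM in B-1a and 2922 and 2680.0 in B-1b, or 2687 ± 259 against 2801 ± 171 (SD, n = 2). On both measures the 2 groups overlapped. With VH12 genes left out of the Ighv total, a denominator chosen after seeing the data, the share was 47.7% and 43.0% in B-1a and 50.2% and 50.04% in B-1b and no longer overlapped. With 2 libraries against 2, an exact two-sided permutation test cannot give a p below 0.333, so this test could not pass for such a summed value. None of the 50 members was at 0 in any library. The median member stood at 33.8 and 29.7 FPKM in B-1a and at 30.0 and 24.4 in B-1b.

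Within the family the 2 groups differed more. In the fit over all genes, 49 of the 50 members passed the filter of at least 1 FPKM in 2 of the 4 libraries, and the exception was Ighv1-56, listed at 3.05 and 0.953 FPKM in B-1a and at 0.121 and 0.221 in B-1b. Of these 49, 3 passed the test (limma, Benjamini-Hochberg adjusted p below 0.05 with a log2 fold change beyond 1 in either direction), all higher in B-1b, against 15 of 7557 genes tested, or 0.198%. All 3 are among the 5 members with a departing replicate 3. Leaving out any 1 of the 4 libraries left 0 members past the test, as it left 0 genes of the whole table, and without the filter Ighv1-9 was the only member among 7 genes that passed. The log2 fold change was above 0 in 13 of the 49 members, while it was above 0 in 56.2% of all genes tested. Its median was -0.45 over the members, 0.05 over all genes and -0.34 over the other 49 Ighv genes tested. In 30 members both B-1b libraries lay below both B-1a libraries, a pattern seen in 17.3% of all genes, and in 11 members both lay above, compared with 25.8% of all genes. The other 8 members overlapped between groups.

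**Figure D1:**
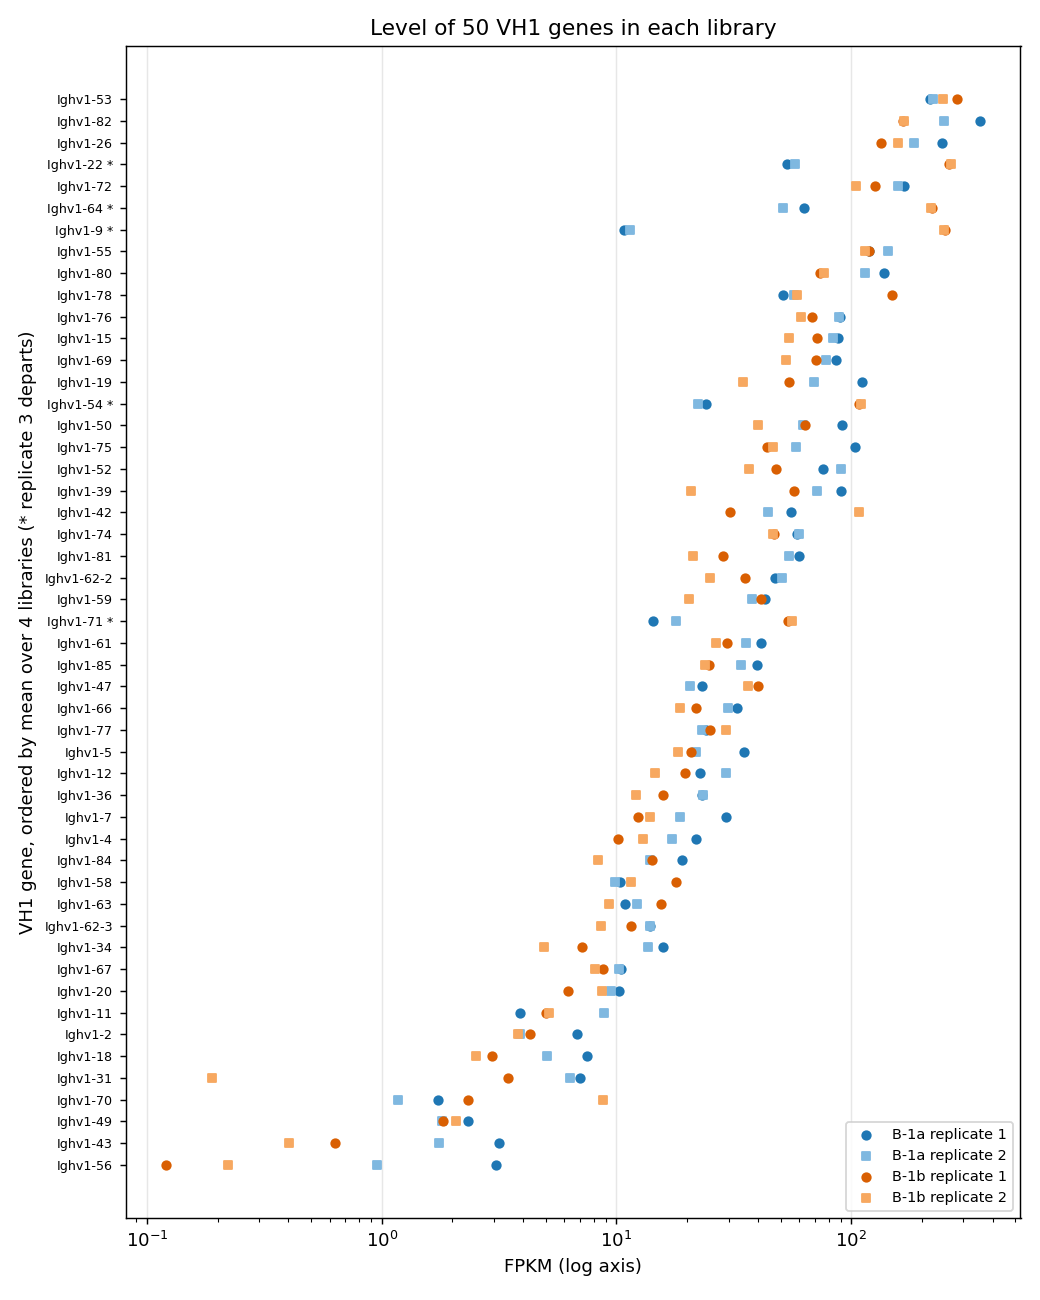
FPKM (log axis) of each of the 50 VH1 genes in both B-1a libraries (blue) and both B-1b libraries (orange), ordered by the mean over the 4 libraries, with an asterisk on the genes whose replicate 3 departs. Ighv1-9, Ighv1-22, Ighv1-54, Ighv1-64 and Ighv1-71 stand out with both B-1b points far to the right, while in 30 of the 49 genes tested, and in the untested Ighv1-56, both B-1b points lie to the left.

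Ighv1-9 differed most between the groups. It stood at 10.8 and 11.4 FPKM in B-1a and at 252 and 248 in B-1b, which moved it from rank 39 to rank 3 in the family. The B-1b mean was 22.5-fold the B-1a mean, with a log2 fold change of 4.37 (SE 0.14, limma adjusted p = 0.0106), the largest among all Ighv genes tested. The gene lies at chr12:114583569-114584002, number 5 of the members counted from the D genes.

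Ighv1-22, at chr12:114746273-114746706, was at 53.3 and 57.8 FPKM in B-1a and at 260.1 and 266 in B-1b, where its mean ranked 1, level with that of Ighv1-53, after rank 18 in B-1a. By library it ranked 2 in B-1b replicate 1 and 1 in replicate 2. The libraries separated completely, with a log2 fold change of 2.22 (SE 0.14, limma adjusted p = 0.0443). Its close relative Ighv1-18, which differs at 4 positions of the printed stretch, was at 7.50 and 5.04 FPKM in B-1a and at 2.96 and 2.51 in B-1b, so it did not share the higher B-1b level. Ighv1-54, at chr12:115193675-115194134, was at 24.1 and 22.3 FPKM in B-1a and at 108 and 110.0 in B-1b. Its log2 fold change was 2.18 (SE 0.14, limma adjusted p = 0.0444) and its rank went from 31 to 9.

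Ighv1-64 and Ighv1-71 had the same pattern without passing the test. Ighv1-64, at chr12:115507545-115508031, was at 62.6 and 51.0 FPKM in B-1a and at 221 and 219 in B-1b, a 3.88-fold ratio of means (log2 fold change 1.94, SE 0.17, limma adjusted p = 0.0795). Its rank was 17 in B-1a and 4 in B-1b. Ighv1-71, at chr12:115742205-115742647, was at 14.3 and 18.0 FPKM in B-1a and at 53.5 and 55.8 in B-1b (log2 fold change 1.71, SE 0.18, limma adjusted p = 0.131). For each of these 5 genes both B-1b libraries lay above both B-1a libraries, and by log2 fold change they ranked 1, 3, 4, 5 and 6 among the Ighv genes.

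The same 5 genes are those in which a column numbered 3 departs, by the following amounts. For Ighv1-22 the B-1a replicate 3 was 40.5 FPKM. That is the mean of replicates 1 and 2 if 30.0 FPKM is taken from either of them. Taking it from replicate 2 would put that replicate at 27.8 FPKM. The corresponding value of replicate 2 was 11.9 FPKM for Ighv1-9 and 14.2 FPKM for Ighv1-71. In Ighv1-64 and Ighv1-54 it was B-1b replicate 3 that departed, at 218 FPKM, 3 below replicate 1, and at 106 FPKM, 2 below replicate 1. In Ighv1-71 B-1b replicate 3 was 54.6 FPKM, the mean of replicates 1 and 2. Assigning the B-1a shift to replicate 2 rather than replicate 1 was a choice, as was setting B-1b replicate 1 to replicate 3. With these implied values in place of the deposited ones, in the 5 genes only, Ighv1-9 was the only VH1 member past the test. Ighv1-22 then had a log2 fold change of 2.74 (limma adjusted p = 0.175) and Ighv1-54 one of 2.17 (limma adjusted p = 0.0504). Of all 15 genes past the test in the whole table, 4 had a departing replicate 3, namely these 3 members and Ighm. Whether the departures bear on the deposited values of replicates 1 and 2 was not tested.

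The 5 genes also lay closer together between libraries than other members did in B-1b. The difference between the B-1b libraries was 0.739 to 4.13% of their mean (median 2.21%) in these 5 genes, against 1.19 to 179% (median 25.9%) in the other 45 members, of which 6 were below 5%. Among the 12 others with a B-1b mean of at least 50 FPKM the median was 17.5%. In B-1a the same 5 genes differed by 5.82 to 22.9% (median 8.25%), and the other 45 by 0.535 to 105% (median 15.01%).

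**Figure D2:**
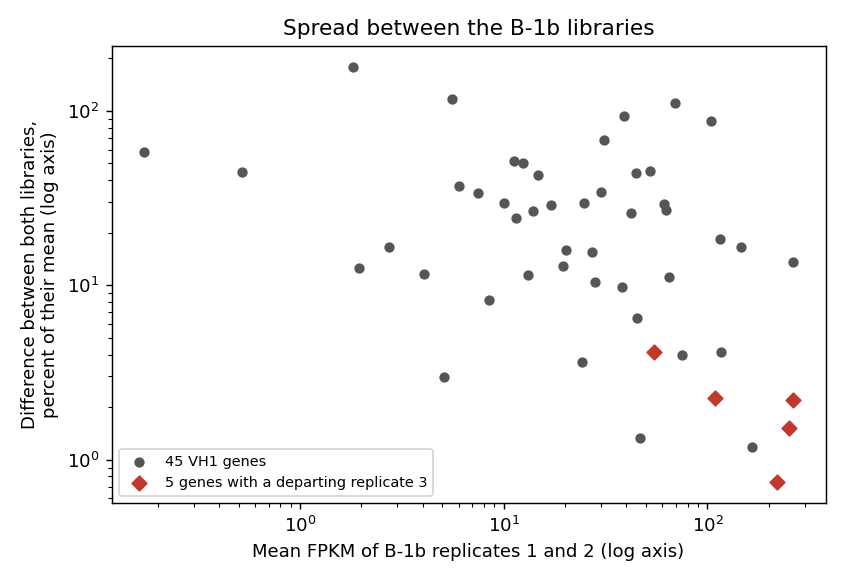
Difference between B-1b replicates 1 and 2 as a percent of their mean (log axis) against that mean in FPKM (log axis), 1 point per VH1 gene. The 5 genes with a departing replicate 3 (red diamonds) lie between 0.739 and 4.13%, and the other 45 (grey) have a median of 25.9%.

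Together the 5 genes accounted for 5.75% and 6.41% of VH1 FPKM in the B-1a libraries and for 30.6% and 33.6% in the B-1b libraries. Their summed level was 165 and 161 FPKM in B-1a and 894 and 899 in B-1b. The other 45 members summed to 2705 and 2343 FPKM in B-1a and to 2028 and 1781 in B-1b, so both B-1b libraries were below both B-1a libraries. As a share of all Ighv FPKM these 45 held 44.01% and 39.5% in B-1a and 29.4% and 30.1% in B-1b. In the family total the higher level of the 5 genes and the lower level of the 45 offset each other. These sums follow from members chosen by their departing columns and are given with no test.

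**Figure D3:**
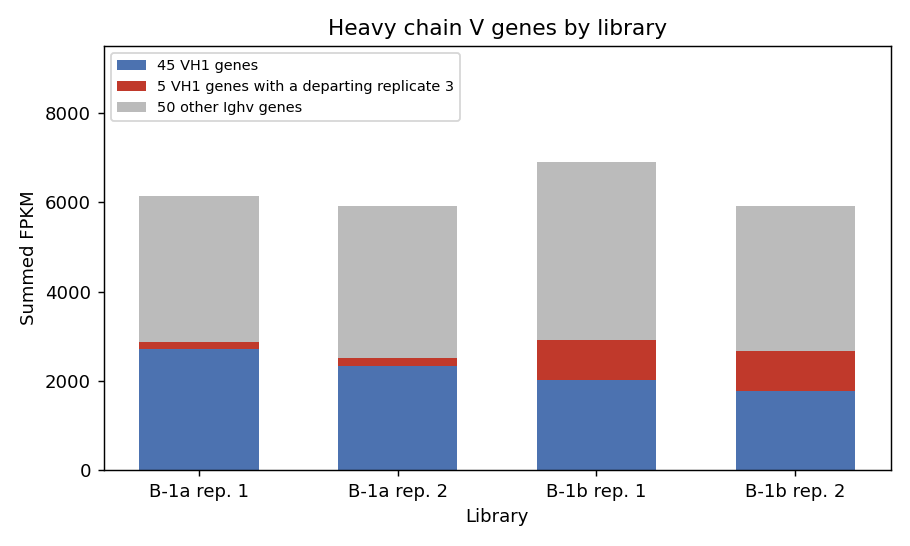
Summed FPKM of heavy chain V genes in each of the 4 libraries, stacked as 45 VH1 genes (blue), the 5 VH1 genes with a departing replicate 3 (red) and 50 other Ighv genes (grey). The red segment is 165 and 161 FPKM in B-1a and 894 and 899 in B-1b, and the blue segment is shorter in both B-1b libraries.

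Ighv1-71 and Ighv1-62-2 form the closest pair of the family. Their V regions are identical over all 294 bases, and their leaders of 57 bases differ at 1 position, so fragments from the V region alone cannot be assigned to either. Ighv1-62-2 (chr12:115446409-115446869) was at 47.3 and 50.8 FPKM in B-1a and at 35.3 and 25.01 in B-1b, the opposite direction to Ighv1-71. Its level was 3.31 and 2.83 times that of Ighv1-71 in the B-1a libraries and 0.660 and 0.448 times in the B-1b libraries. The sum of the pair was 61.5 and 68.7 FPKM in B-1a and 88.8 and 80.8 in B-1b, so the pair as a whole was still separated between groups. How the quantification divided their fragments was not tested, and the separate levels of both genes are uncertain for that reason.

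For comparison, Ighv1-62-3 and Ighv1-72, whose V regions are 99.3% identical and differ at 2 positions, kept a level ratio of 0.0823 and 0.0883 in B-1a and of 0.0919 and 0.0820 in B-1b. Ighv1-52 and Ighv1-61, 98.6% identical, had ratios of 1.83 and 2.54 in B-1a and of 1.62 and 1.39 in B-1b. In these other pairs both genes had the same direction between groups.

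Leaving aside the 5 genes, 36 of the 44 other members tested had a log2 fold change below 0 and 8 above, and 0 passed the limma test, with 17 at an unadjusted p under 0.05, of which 16 were lower in B-1b. Over all genes tested, 730 of 7557 were at an unadjusted p under 0.05, and 323 of these were lower in B-1b. Among the 44 members the smallest adjusted p was 0.251 and the median log2 fold change -0.49. Both B-1b libraries were below both B-1a libraries in 30 of the 44 (68.2%), against 20 of the 49 other Ighv genes tested (40.8%) and 17.3% of all genes. The members share libraries and a normalization, so these are counts of genes and not of independent observations.

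Ighv1-82, the D-distal gene that led the family in B-1a, was at 353 and 248 FPKM there and at 165 and 167 FPKM in B-1b, where it ranked 5. The groups did not overlap, but the difference did not pass the test (log2 fold change -0.83, SE 0.23, limma adjusted p = 0.396). Ighv1-26 was at 242 and 184 FPKM in B-1a and at 134 and 159 in B-1b. Ighv1-80 was at 138 and 115 FPKM in B-1a and at 73.3 and 76.3 in B-1b (log2 fold change -0.74, limma adjusted p = 0.316). All 3 separated in the same direction.

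Among the remaining abundant members, Ighv1-72, the gene known as V186.2 from antibody responses to the hapten NP, was at 168 and 158 FPKM in B-1a and at 126 and 105 in B-1b. Ighv1-15 was at 87.4 and 83.3 FPKM in B-1a and at 71.4 and 54.4 in B-1b. Ighv1-76 was at 89.9 and 88.2 FPKM in B-1a and at 68.3 and 61.1 in B-1b. Each of these had lower values in both B-1b libraries, with a B-1b mean of 0.706 to 0.737 times the B-1a mean, and none passed the test. Ighv1-55, at 119.1 and 143 FPKM in B-1a against 118.9 and 114 in B-1b, also had both B-1b libraries lower, but the nearest libraries of the 2 groups almost met (log2 fold change -0.16, SE 0.17, limma adjusted p = 0.759).

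Smaller members with the lowest p in the lower direction were Ighv1-81, Ighv1-34 and Ighv1-52. Ighv1-81 was at 59.8 and 54.4 FPKM in B-1a and at 28.4 and 21.1 in B-1b (log2 fold change -1.19, SE 0.21, limma adjusted p = 0.251). Ighv1-34 was at 15.7 and 13.6 FPKM in B-1a and at 7.14 and 4.91 in B-1b (log2 fold change -1.17, SE 0.25, limma adjusted p = 0.292). Ighv1-52 was at 75.6 and 90.0 FPKM in B-1a and at 47.8 and 36.8 in B-1b (log2 fold change -0.96, SE 0.21, limma adjusted p = 0.310). In each, the lowest B-1a library was above the highest B-1b library, and the adjusted p was above the threshold.

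Few members outside the 5 had higher values in B-1b. Ighv1-53, the member with the highest mean over the 4 libraries, was at 216 and 223 FPKM in B-1a and at 281 and 245 in B-1b (log2 fold change 0.26, SE 0.16, limma adjusted p = 0.678), and its mean ranked 2 in both groups. Ighv1-47 was at 23.2 and 20.5 FPKM in B-1a and at 40.0 and 36.2 in B-1b (log2 fold change 0.78, SE 0.16, limma adjusted p = 0.292). Ighv1-78 had 51.1 and 57.2 FPKM in B-1a and 149 and 58.6 in B-1b. Its B-1b libraries were both above B-1a, but 1 of them only narrowly.

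Several members differed widely between the B-1b libraries. Ighv1-42 was at 30.5 and 108 FPKM there, on either side of its 55.1 and 44.2 FPKM in B-1a. Ighv1-39 was at 57.1 and 20.8 in B-1b after 90.0 and 71.5 FPKM in B-1a. Ighv1-31 was at 3.44 and 0.189 in B-1b after 6.96 and 6.32 FPKM in B-1a. So Ighv1-42 overlapped between groups, while Ighv1-39 and Ighv1-31 were lower in both B-1b libraries by unequal amounts.

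Members with 2 rows did not always have rows of the same direction between groups. In Ighv1-19 the first row was at 105 and 65.7 FPKM in B-1a and at 50.7 and 0 in B-1b, while the second was at 6.47 and 3.88 FPKM in B-1a and at 3.50 and 34.6 in B-1b. Ighv1-74 had a first row at 31.5 and 28.6 FPKM in B-1a and at 25.2 and 0 in B-1b, and a second at 27.3 and 31.2 FPKM in B-1a and at 21.6 and 46.2 in B-1b. In both genes the rows moved in opposite directions in B-1b replicate 2, and the summed levels, 111 and 69.6 against 54.2 and 34.6 FPKM for Ighv1-19 and 58.9 and 59.8 against 46.9 and 46.2 FPKM for Ighv1-74, were lower in B-1b. The rows of Ighv1-77 also differed in sign, by small amounts, and its summed level was 23.99 and 23.2 FPKM in B-1a and 24.97 and 29.1 in B-1b. Of the 50 members, 15 had 2 rows. The 5 genes with a departing replicate 3 have 1 row each.

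Members with higher and with lower values lay among both the first 25 and the last 25 genes of the family. Of the members outside the 5, the 22 tested among the first 25 genes of the family counted from the D genes had a median log2 fold change of -0.57 with 3 above 0, and the 22 tested among the last 25 had a median of -0.45 with 5 above 0. The 5 genes themselves were spread over the family, with 3 (Ighv1-9, Ighv1-22 and Ighv1-54) among the first 25 genes and 2 (Ighv1-64 and Ighv1-71) among the last 25.

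**Figure D4:**
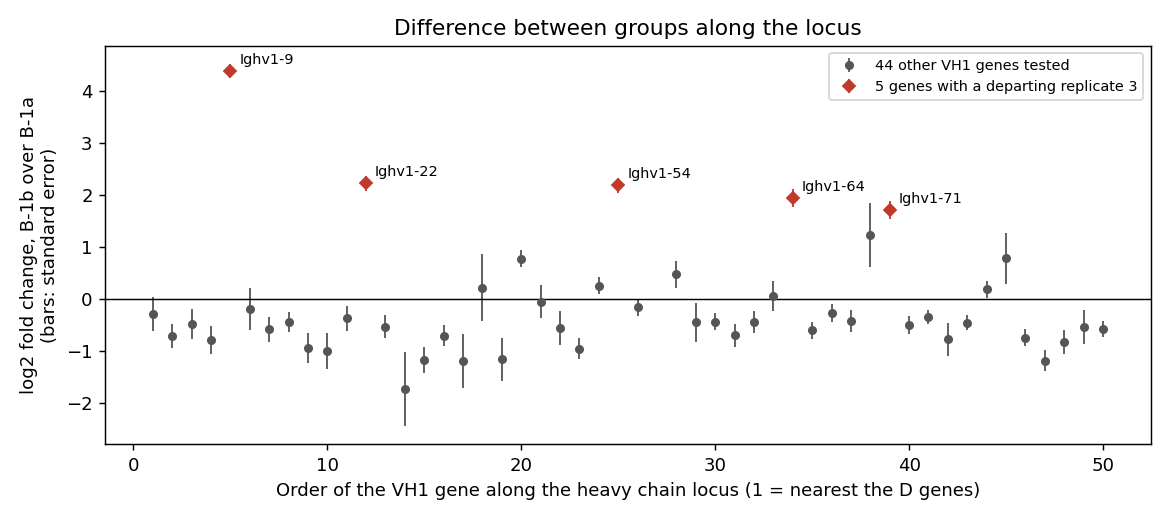
Log2 fold change (B-1b over B-1a) of the 49 VH1 genes tested, with its standard error from limma, in the order of the genes along the heavy chain locus from the D genes. The 5 genes with a departing replicate 3 (red diamonds) lie between 1.71 and 4.37 at separate places, and the other 44 (grey) have a median of -0.49.

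The use of the family was spread over many genes in all libraries. The effective number of VH1 genes, the exponential of the Shannon entropy of their shares, was 29.4 and 30.3 in B-1a and 27.8 and 26.3 in B-1b, or 29.8 ± 0.603 against 27.0 ± 1.03 (SD, n = 2). Both B-1b libraries were lower. Over the 45 members outside the 5 it was 26.3 and 26.8 in B-1a and 25.7 and 24.7 in B-1b. The 5 most abundant genes of each library held 38.9% and 38.2% of the family in B-1a and 40.4% and 42.7% in B-1b. The pseudogenes Ighv1-2 and Ighv1-70 together held 0.202 to 0.470% in the 4 libraries.

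As a description across genes, which are not independent replicates and share a library, the log2 levels of the 50 members had a Pearson correlation of 0.98 between the B-1a libraries and of 0.96 between the B-1b libraries. Between groups it was 0.78 to 0.86, and 0.90 to 0.96 once the 5 genes were left out. Without them, the B-1b libraries correlated with each other at 0.95, within the range between groups.

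Ighm, the mu constant gene with which V genes are transcribed in B-1 cells, was at 32.5 and 38.7 FPKM in B-1a and at 2585 and 2781 in B-1b (log2 fold change 6.20, SE 0.17, limma adjusted p = 0.0106), and its B-1a replicate 3 departs too. The B-1a level of Ighm was far below the 2870.2 and 2504 FPKM of summed VH1 transcripts in the same libraries, and summed VH1 levels did not follow it between groups. Of the other immunoglobulin expression genes none passed the test, so 1 of 26 tested did, with 9 higher and 17 lower in B-1b. Over all genes tested, 0.198% passed and 56.2% had a log2 fold change above 0. Ighd, the delta constant gene, was at 436 and 330 FPKM in B-1a and at 214 and 241 in B-1b (log2 fold change -0.74, limma adjusted p = 0.410). In B-1a Ighm thus lay below Ighd, whereas the paper characterizes B-1 cells as IgM high and IgD low. The reason for the low B-1a level of Ighm was not tested. All 4 light chain constant genes had log2 fold changes below 0, -0.27 for the kappa constant gene Igkc. Of the signaling partners of the B cell receptor, Cd79a had a log2 fold change of -0.51 and Cd79b one of 0.30, in the opposite direction, at 1093 and 1077 FPKM in B-1a against 1473 and 1213 in B-1b. Among the factors of V promoters and enhancers 6 of 7 had a log2 fold change below 0. Pou2af1, the coactivator of octamer-binding factors at V promoters, was at 260 and 249 FPKM in B-1a and at 215 and 155 in B-1b.

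Markers of the cell types that a peritoneal sort could hold were read beside these values, and none passed the test. The summed levels of 3 lists separated the groups, those of B cells, B-2 cells and B-1 cells. B-2 cell markers, all 4 of them in the table and mostly Ighd, summed to 495 and 378 FPKM in B-1a and to 265 and 288 in B-1b, with 2 of 4 higher in B-1b and Cr2 at 0 in replicate 2 of both groups. B-1 cell markers, 5 of 6 in the table, summed to 33.6 and 49.7 FPKM in B-1a and to 81.5 and 99.6 in B-1b, with 3 of the 4 tested higher in B-1b. Itgam was the largest part in each library, at 17.6 and 33.4 FPKM in B-1a and 56.7 and 48.0 in B-1b. Cd9 was close to it in B-1b replicate 2, at 47.0 FPKM. The B cell markers summed to 4075 and 3832 FPKM in B-1a and to 3532 and 3813 in B-1b, where both libraries were lower, 1 of them narrowly, with 3 of 6 genes higher and 3 lower. T cell markers, of which Cd4 and Cd8a are not in the table, summed to 8.35 to 12.3 FPKM in all libraries. Plasma cell markers summed to 126 to 162 FPKM and overlapped between groups. Mast cell markers summed to 79.1 and 74.9 FPKM in B-1a and to 146 and 75.0 in B-1b, with 4 of 4 tested genes higher in B-1b on the log2 scale and replicate 1 above the other libraries. All 6 macrophage markers were in the table, 5 of them with a higher mean in B-1b, and they summed to 4490.4 and 3388 FPKM in B-1a and to 4140.5 and 7055 in B-1b, mostly Lyz2. Adgre1, the macrophage antigen F4/80, was at 51.1 and 56.0 FPKM in B-1a and at 90.4 and 101 in B-1b. Csf1r, Cd14 and Cd68 also had both B-1b libraries above both B-1a libraries. Timd4 went the other way, at 23.4 and 23.8 FPKM in B-1a and 16.5 and 18.9 in B-1b. The part of these transcripts in the lower levels of the 45 members was not tested.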

How the data were processed

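Bulk RNA from sorted PerC B-1a and B-1b cells was sequenced, with 3 replicates stated per group. According to the study's methods and the submitters' processing notes, the authors used HISAT2 for alignment to GRCm38/mm10, StringTie for quantification and Ballgown for testing, with versions not given in the sources used here. Each deposited value was taken as the FPKM of a transcript. The table states no unit and is titled as raw read counts, but its values are not whole numbers, so the unit was inferred from fractional values and column totals that differ, and depth is unknown. There were 0 further sample columns.

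Rows of a gene name were summed. Replicates 1 and 2 of each group entered the fit, since replicate 3 derives from them. A gene was tested if 2 or more libraries had at least 1 FPKM, on log2(FPKM + 1), which understates changes of low genes, with limma 3.58.1 in R 4.3.3, an intensity trend and Benjamini-Hochberg adjusted p-values over 7557 genes. The step was tested on simulated data. Sequences and coordinates came from GENCODE M21, which matched 7830 of 7834 names. Other steps used Python 3.11.15, numpy 2.4.6, pandas 2.3.3, Biopython 1.88 and matplotlib 3.10.9.

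The members, lists and alternatives were chosen with earlier results of these data known. Named members were the 12 most abundant, the 5 per direction with the smallest p, those called, those with a departing replicate 3, and those whose rows differ in direction. Ighv1-18, Ighv1-31, Ighv1-39, Ighv1-42, Ighv1-47, Ighv1-56, Ighv1-61, Ighv1-62-2, Ighv1-62-3, Ighv1-63 and the pseudogenes were named after their values were seen. Alternatives were the pseudocount, filters, scalings, a replicate block, the columns numbered 3, each library left out, rows kept apart and other denominators. Implied values, and VH12 left out of the denominator, were added after seeing the data.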

Additional observations from a re-analysis of the deposited data

How the results depend on the processing

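The count of 3 members past the test was the same with a pseudocount of 0.1, at least 10 FPKM, equal upper quartiles, equal totals without immunoglobulin genes, and the mean of B-1b replicates 1 and 3. It was 1 with no filter on low values, 1 with equal summed Ighv values and 1 with the implied values (chosen after seeing the data), where the whole table had 7, 8 and 13 calls against 15. The implied values were set for the 5 members only, so Ighm and the other departing genes kept their deposited values. With all 6 columns as deposited, which counts derived columns as libraries, the count of members was 9, and the whole table had 407. It was 0 without the 5 members with a departing replicate 3, since those hold all 3 calls. Leaving out each library in turn gave 0 each time, and 0 in the whole table, with 9 to 25 members and 538 to 1127 genes at an unadjusted p under 0.05, and the lone library was assumed to vary like the other group. With the replicate number as a block 0 members and 0 genes of the whole table passed, with 19 members and 614 genes at an unadjusted p under 0.05. The deviations of same-numbered libraries had a correlation of 0.00124 over 7557 genes. Each group gives only its difference between replicates 1 and 2. This value therefore cannot show whether same-numbered libraries had a common origin, which the sources do not state. For the immunoglobulin genes the count of 1 became 0 with the block and 0 with any library left out. The count of 13 members higher in B-1b became 8 without the 5 members, and the median log2 fold change kept its sign throughout. The difference in summed VH1 level, 114 FPKM, became -620 FPKM without the 5 members and ranged from -69.2 to 297 FPKM with a library left out. The difference in VH1 share of Ighv was -0.587 percentage points. It became -8.25 with the 5 members left out of both VH1 and the Ighv total. It was 0.0381 as a share of all genes, 4.75 with VH12 genes left out (chosen after seeing the data) and -2.81 to 1.63 with a library left out. The effective number kept its direction under each alternative run. With rows kept apart Ighv1-22 and Ighv1-54 lost the call (limma adjusted p = 0.0883 for both), and the second row had a log2 fold change of 1.07 in Ighv1-19, 0.11 in Ighv1-74 and -0.022 in Ighv1-77, opposite to the sum. Over the 20 named members, 277 values kept direction and side of the threshold, 23 lost the call, 4 gained it and 3 reversed. The cause of these changes was not tested. The unknown depth, 2 libraries per group and shared sequence limit the precision.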
